A study of Mus musculus with 6 samples.

Results

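Chemokines are small secreted proteins that direct the movement of leukocytes, and they act on G-protein-coupled receptors on the surface of the responding cell. Most ligands belong to the CC or the CXC class, named after the spacing of conserved cysteines, and most bind several receptors. A further group, the atypical receptors, binds chemokines and removes or transports them without signalling through G proteins. In the mouse uterus chemokines are known for drawing macrophages, eosinophils and neutrophils into the tissue. The members described here are the protein-coding rows of the deposited gene table whose symbol is that of a chemokine or a chemokine receptor. There were 59 such rows of 26018 genes listed, 36 for ligands and 23 for receptors, with 56 different symbols because Ccl21a, Ccl21c and Ccl27a each stand on more than 1 row. The choice used symbols and not values, but it was made with earlier results of these data known.

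RNA came from uterine tissue of untreated female mice, 6 weeks old and of like body weight. The 3 Tcf21d/d animals carry a conditional deletion of Tcf21, which encodes a mesenchymal transcription factor, and are called cKO here. The 3 Tcf21f/f animals carry floxed copies of the gene and served as controls. Each library came from 1 animal, and both groups were handled at the same time, per the series' design text. Which Cre line was used, and in which cells Tcf21 was deleted, is not stated in the sources. Tcf21 had normalised read counts of 26.0, 0 and 0 in the cKO libraries, against 341.4, 151.9 and 144.1 in the controls. A normalised read count is a gene's reads divided by 1 scaling factor per library, and the libraries held 14584450 to 16579573 reads on genes. Of the 7 listed uterine genes, Hoxa10, Pgr, Esr1 and Emx2 were well detected in all 6 libraries, whereas Wnt7a was at 0 in 4 of them (replicates 2 and 3 of both groups). Hoxa10, Pgr, Esr1 and Emx2 had means of 293.6, 512.8, 483.9 and 200.5 in cKO and 999.8, 1451.3, 1237.3 and 431.4 in control libraries. All 6 tested genes of the list had a negative fitted difference (limma, median log2 fold change of cKO over control -1.56), and none was called. Hoxa11 had normalised read counts of 36.2, 35.1 and 3.31 in the cKO libraries and 896.2, 470.0 and 67.6 in the controls, and Hoxd10 had 105.0, 27.3 and 8.84 in the cKO libraries and 807.2, 426.0 and 15.1 in the controls. Skeletal muscle transcripts took 6.19, 9.13 and 8.62% of reads in the cKO libraries and 3.05, 5.99 and 4.27% in the controls. The list of 7 uterine genes took 0.00721 to 0.0142% of reads in the cKO libraries and 0.0128 to 0.0453% in the controls. Control replicate 1 held 1.61% of its reads on liver genes, against at most 0.0114% in every other library, and 23.8% on mitochondrially encoded genes, against 8.1 to 13.7%. Smooth muscle genes, of which 8 of 9 fell (limma), took 0.494, 0.668 and 0.546% of reads in the cKO libraries and 1.2, 1.7 and 1.67% in the controls. The 8 fell by log2 fold changes of -1.54 (Smtn) to -6.86 (Actg2). Des, which did not fall, had normalised read counts of 60821, 92182 and 75687 in the cKO libraries and 60998, 74438 and 82710 in the controls. Des made up most of the list's summed normalised read counts in the cKO libraries, which were 76100, 104000 and 87900. The part of these tissue differences in the results on chemokine genes was not tested.

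Of the 59 members, 45 passed the filter on low reads and were tested, 29 ligands and 16 receptors. The other 14, split equally between 7 ligands and 7 receptors, had few reads, and 11 of them had at most 15 normalised reads in every library. The highest value among them was 80.5, for the chromosome 4 row of Ccl21a in control replicate 1. They were the ligand rows Ccl1, Xcl1, Cxcl17, Ccl27b and single rows of Ccl21a, Ccl21c and Ccl27a, and the receptors Ccr3, Ccr4, Ccr6, Ccr8, Ccr9, Cxcr1 and Cxcr5. A member could pass the filter through its level in 1 group alone. Ccl8, a ligand for monocytes and other leukocytes, and Cxcr4, the signalling receptor of Cxcl12, rose in the cKO uteri. The test was limma, and calls needed a Benjamini-Hochberg adjusted p under 0.05 over 16314 genes. No member was lower by this test. That is 4.44% of the tested members called higher, where 0.276% of all tested genes were called higher, 0.889% lower and 1.16% in either direction. At an unadjusted p under 0.05, 10 members were higher and 1 was lower, where 6.11% of all tested genes were higher and 7.60% lower at that level. All 3 cKO libraries stood above all 3 controls for 9 members and below them for 1, and these separations held for 9.04% and 10.5% of all tested genes. The fitted difference was positive for 38 of the 45 members and 50.3% of all tested genes. The median log2 fold change (cKO over control) was 0.41 over the tested members and 0.0020 over all tested genes. The members' median was smaller by other fits. It was 0.246 with DESeq2, 0.241 with edgeR and 0.244 in the authors' deposited table, where the medians over all tested genes were -0.0169, -0.0229 and -0.0142, and in each 34 of the 45 members were positive. The members Ccl17, Ccl28, Ccr7, Cx3cr1 and Cxcl14 had a positive fitted difference and a lower mean in cKO than in control libraries. The members are not independent of each other, and no test of the list as a whole was made. Of the 45, 42 also had a mean of at least 1 CPM, the usual unit of counts scaled to library size, over all libraries, and 35 of these had a positive difference. Of the 45 tested members, 27 had their highest value in a cKO library and 35 their lowest in a control library, with 15 lowest in control replicate 1 and 15 in control replicate 3.

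**Figure D1:**
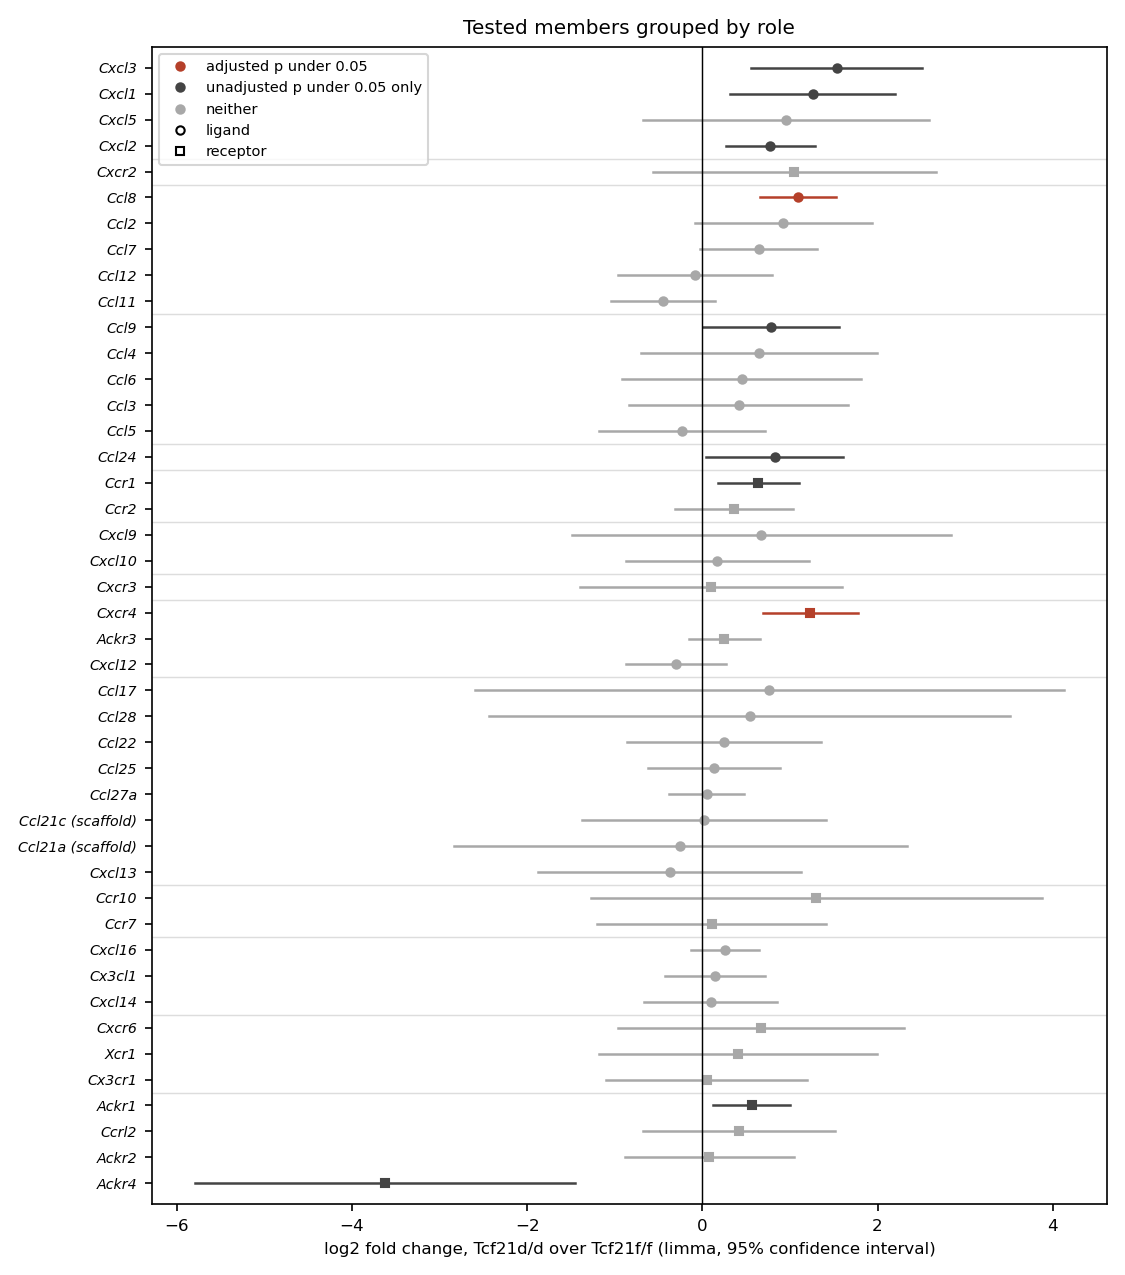
Fitted log2 fold changes (x axis, Tcf21d/d over Tcf21f/f) of 44 of the 45 tested members (y axis), with 95% confidence intervals from limma and 3 libraries per group; circles are ligands, squares are receptors, and thin grey lines part the roles. Ccl8 and Cxcr4 are the members with an adjusted p under 0.05, and Ackr4 is the member farthest to the left at -3.62.

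Levels can be compared between genes only per length, so the values in this paragraph are normalised read counts per kilobase of exon. Ccl8 had the highest mean of all members, at 4337 ± 785 (SD, n = 3) in the cKO libraries and 2027 ± 320 in the controls. The next ligands were Ccl6 and Ccl9, mouse ligands of the receptor Ccr1, Ccl21a, which guides Ccr7-bearing cells to lymphoid tissue, and Cxcl14, a ligand made in epithelia and stroma. Their means over all libraries were 719, 603.2, 682.6 and 475.9, and their libraries overlapped one another, so their order is not settled by these samples. In control replicate 2 Ccl21a, at 2162, stood above Ccl8, at 1755. Among receptors Ackr1 led with 402.5 ± 6.81 in the cKO libraries and 276.5 ± 61.5 in the controls. It was followed by Ackr3 at a mean of 246.3, Cxcr4 at 161.4, Ccr2 at 107.5 and Cx3cr1 at 82.5, and each overlapped the next in this order. Ackr1 takes up inflammatory chemokines on venules and red blood cells, and Ccr2 and Cx3cr1 mark monocytes and macrophages. The receptors of lymphocyte homing, Ccr4, Ccr6, Ccr9 and Cxcr5, stayed at means of 0.129 to 1.02, and Ccr7 and Ccr10 were at 18.4 and 5.27.

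**Figure D2:**
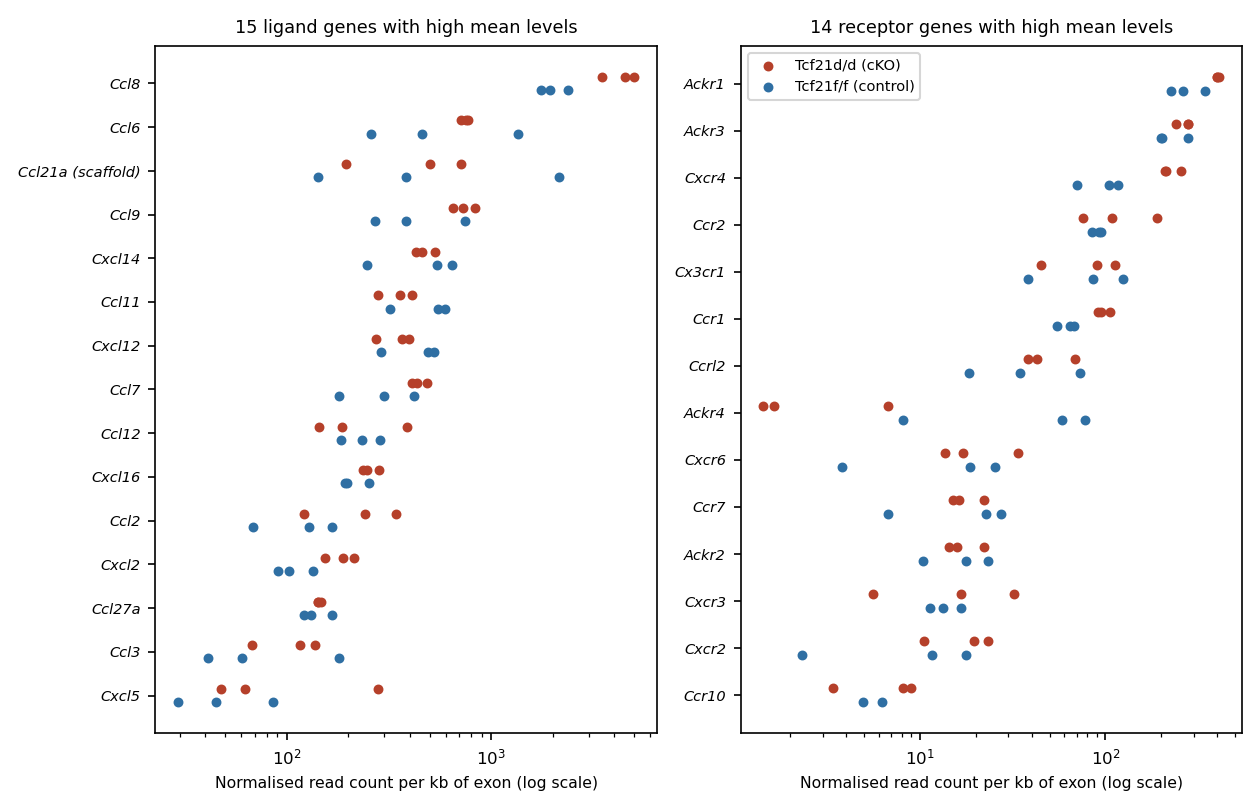
Normalised read count per kilobase of exon (x axes, log scale) of 15 ligand and 14 receptor genes (y axes) with high means; each point is 1 library, with the 3 Tcf21d/d libraries drawn above the 3 Tcf21f/f ones, and a library at 0 (Ccr10 in control replicate 3) is not drawn. Ccl8 lies above the other ligands in every library except control replicate 2, where Ccl21a is higher, and most other neighbours in the order overlap.

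Ccl8 (ENSMUSG00000009185) lies on the plus strand of chromosome 11 (82115185 to 82116799, GRCm38), in a run of related ligand genes. In mice its product is an agonist of the receptor Ccr8, and in humans of several inflammatory CC receptors. Its normalised read counts were 2312.8, 2559.7 and 1775.6 in cKO replicates 1 to 3, against 993.7, 896.9 and 1216.1 in control replicates 1 to 3. The groups did not overlap, and the lowest cKO library was 1.46 times the highest control. The cKO mean was 2.14 times the control mean, with a fitted log2 difference of 1.09 ± 0.19 (SE, 3 libraries per group; 95% confidence interval 0.66 to 1.52), and the difference passed with limma (adjusted p = 0.0349). In the authors' deposited table the adjusted p of Ccl8 is 0.000116. Ccl8 kept the call without control replicate 1 (adjusted p = 0.0307), the library with liver transcripts, and without control replicate 3. It lost it with each of the other 4 libraries left out, at limma adjusted p values of 0.0649 to 0.197, and with limma-voom (0.0508) or scaling to total reads (0.0796) and with edgeR without its robust option (0.0608; 0.0455 with it), while the log2 fold change stayed at 0.98 to 1.24 over the 6 omissions. The 150 bases before the RefSeq start of Ccl8 (GRCm38.p6, chr11:82115035-82115184, plus strand) are shown because it was the member with the smallest p.
Ccl8: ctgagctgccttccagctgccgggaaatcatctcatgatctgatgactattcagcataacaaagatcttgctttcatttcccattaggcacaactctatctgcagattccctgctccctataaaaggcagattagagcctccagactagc
This window held no match, on either strand, to the letters GGAANTTCC, a form of the binding motif of NF-kappaB factors, or GAAANNGAA, a form of the interferon-stimulated response element.

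Among the neighbours of Ccl8, Ccl2 and Ccl7, both agonists of the monocyte receptor Ccr2, had higher cKO means without a call. The 6 genes of this group, with Ccl11, Ccl12 and Ccl1, span 270.1 kilobases from 82035571 to 82305690 on chromosome 11. Ccl2 had normalised read counts of 138.5, 275.0 and 390.0 in the cKO libraries and 78.0, 188.7 and 145.9 in the controls. Ccl7 had 329.9, 388.1 and 346.9 in the cKO libraries and 143.9, 240.9 and 335.4 in the controls. For both genes control replicate 1 was lowest and the groups overlapped, with limma adjusted p values of 0.411 and 0.384. The rest of the group had lower or like cKO means. Ccl11, which recruits eosinophils through Ccr3, had 302.0, 441.7 and 386.7 in the cKO libraries against 642.5, 594.1 and 346.1 in the controls, a log2 difference of -0.45 ± 0.26 (SE) that did not pass (limma adjusted p = 0.503). Ccl12 had means of 128.3 ± 69.4 in cKO and 125.9 ± 27.1 in control libraries (SD, n = 3 each), and Ccl1 had 2 reads in 1 cKO library and none in the other 5. Ccl24, an eosinophil attractant encoded on chromosome 5, stood higher in all 3 cKO libraries, at 104.1, 84.8 and 99.4 against 49.99, 73.7 and 41.8 in the controls. Its log2 fold change was 0.82 ± 0.35, and it did not pass (limma adjusted p = 0.336). Ccr3, the receptor for Ccl11 and Ccl24, was not tested and had at most 8.84 normalised reads in a library. Ccr8 likewise had 2 reads over all cKO libraries and 12 in control replicate 3 only.

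Ccr1 and Ccr2, receptors of inflammatory CC ligands, had higher cKO means, and neither passed. Ccr1, the receptor of Ccl3, Ccl5 and other ligands on monocytes and neutrophils, had normalised read counts of 267.6, 259.4 and 298.3 in the cKO libraries and 154.8, 183.3 and 192.2 in the controls. The groups did not overlap, the log2 difference was 0.64 ± 0.21 (SE), and it did not pass (limma adjusted p = 0.207). Ccr2, which brings monocytes out of the bone marrow, had 1280.4, 732.3 and 513.8 in the cKO libraries and 621.8, 569.8 and 641.4 in the controls. Its cKO mean rested on cKO replicate 1, and without that library the log2 fold change was 0.01.

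The Ccl3 group, made up of Ccl3, Ccl4, Ccl5, Ccl6 and Ccl9, spans 138.9 kilobases of chromosome 11 from 83525778 to 83664683. None of the 5 passed, and in all but Ccl5 control replicate 2 stood above the other controls. Ccl6 had normalised read counts of 1386.4, 1277.4 and 1351.3 in the cKO libraries, against 465.8, 2434.7 and 828.3 in control replicates 1 to 3. Ccl9 had 1987.6, 2223.3 and 2529.2 in the cKO libraries, against 824.2, 2281.9 and 1174.3 in the controls. In both, control replicate 2 was far above the other controls, and for Ccl6 it was the highest of all 6 libraries. The log2 fold changes were 0.45 ± 0.57 for Ccl6 and 0.78 ± 0.34 for Ccl9, with limma adjusted p values of 0.796 and 0.363. Without control replicate 2 they were 1.11 and 1.18, and Ccl9 passed (limma adjusted p = 0.0423). Ccl3 and Ccl4, inflammatory ligands of macrophages, were also highest among the controls in control replicate 2. Ccl3 had 105.9, 51.7 and 89.5 in the cKO libraries and 31.7, 138.4 and 46.3 in the controls, and Ccl4 had 31.6, 33.2 and 61.9 in the cKO libraries and 21.9, 54.8 and 13.3 in the controls. All cKO values of Ccl3 lay within its control range. Ccl5, a T cell product that acts on Ccr1 among other receptors, was at 44.0 ± 15.4 in cKO and 50.6 ± 10.2 in control libraries. The transcripts of Ccl9 share stretches of at least 95% identity and up to 163 bases with those of 80 other genes, so reads from such stretches are uncertain.

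**Figure D3:**
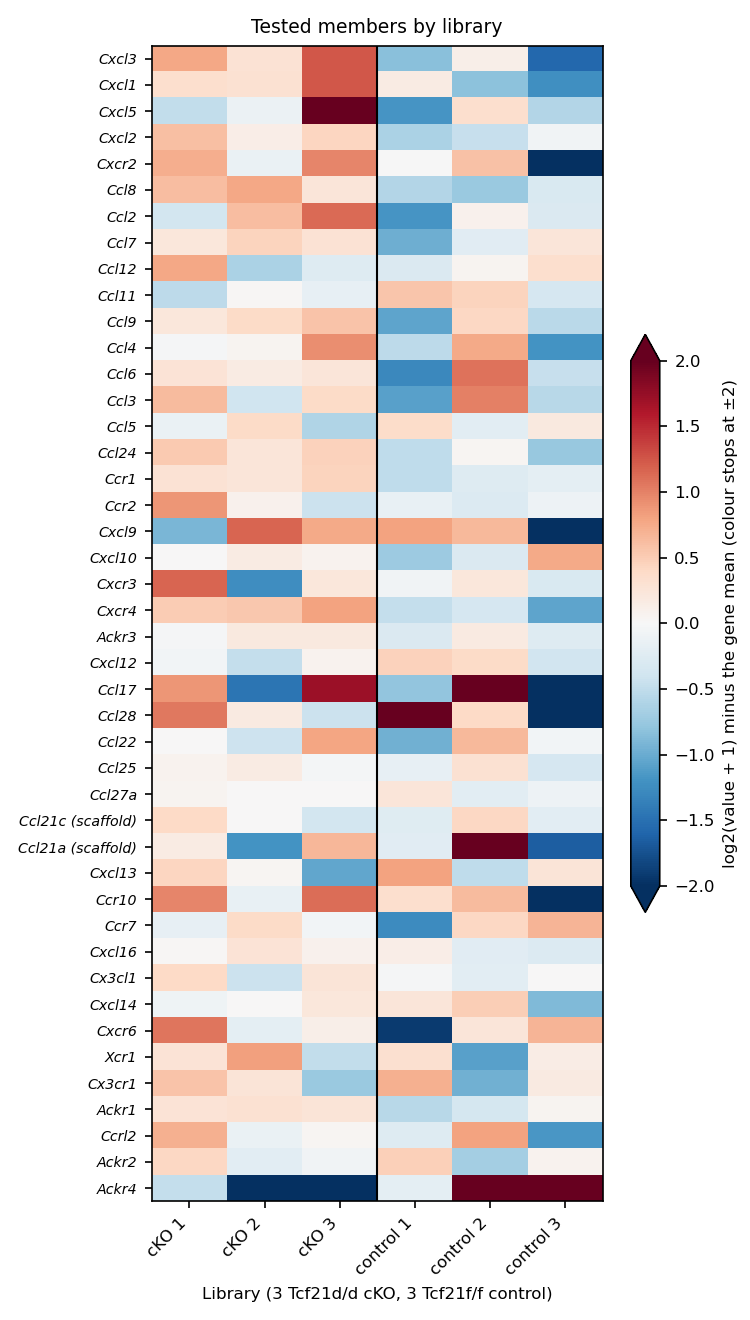
Deviation of each of 44 of the 45 tested members (y axis, grouped by role) from its own mean over 6 libraries (x axis), in log2(value + 1), with red above and blue below the mean. Control replicate 2 is red for Ccl6, Ccl3, Ccl4, Ccl17 and Ccl21a, and control replicates 1 and 3 hold the lowest value of 15 members each.

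The CXC ligands that attract neutrophils, Cxcl1, Cxcl2, Cxcl3 and Cxcl5, lie within 146.6 kilobases of chromosome 5 and act on Cxcr2. Each had a higher cKO mean, and none passed by limma. Cxcl3 had normalised read counts of 306.6, 219.4 and 424.3 in the cKO libraries and 99.98, 194.1 and 59.6 in the controls. Cxcl1 had 160.8, 157.0 and 300.5 in the cKO libraries and 142.7, 71.0 and 53.4 in the controls. Cxcl2 had 442.3, 318.9 and 392.2 in the cKO libraries and 186.5, 212.1 and 277.6 in the controls. In all 3 genes every cKO library stood above every control, but the lowest cKO library was only 1.101 to 1.149 times the highest control. The log2 fold changes were 1.53 ± 0.43 for Cxcl3, 1.26 ± 0.42 for Cxcl1 and 0.77 ± 0.23 for Cxcl2 (SE). Limma gave them adjusted p values of 0.162, 0.219 and 0.168. DESeq2 called Cxcl3 higher (adjusted p = 0.0279), and the authors' deposited table also lists it as higher (adjusted p = 0.0219). Limma called Cxcl3 without control replicate 2 (log2 fold change 1.97, adjusted p = 0.0478) and Cxcl1 without control replicate 1 (1.66, adjusted p = 0.0479). Cxcl5 had 89.2, 116.0 and 519.3 in the cKO libraries against 54.9, 159.1 and 83.6 in the controls, so its cKO mean rested on cKO replicate 3. Cxcr2, the shared receptor on neutrophils, had 59.5, 32.2 and 70.7 in the cKO libraries and 35.4, 53.9 and 7.12 in the controls, with overlapping groups, and its transcripts share near-identical stretches with those of 111 other genes. Transcripts of Cxcl2 and Cxcl3 share a stretch of 116 bases at 98.3% identity, so a few of their reads cannot be assigned with certainty.

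The 150 bases before the RefSeq starts of Cxcl1 (chr5:90891095-90891244), Cxcl2 (chr5:90903749-90903898) and Cxcl3 (chr5:90785951-90786100), all on the plus strand of GRCm38.p6, are printed because these 3 neighbours had the same separation of libraries. Capitals mark matches to GGAANTTCC on either strand.
Cxcl1: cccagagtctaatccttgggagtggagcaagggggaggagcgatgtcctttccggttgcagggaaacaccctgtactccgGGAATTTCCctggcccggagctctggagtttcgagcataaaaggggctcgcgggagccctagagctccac
Cxcl2: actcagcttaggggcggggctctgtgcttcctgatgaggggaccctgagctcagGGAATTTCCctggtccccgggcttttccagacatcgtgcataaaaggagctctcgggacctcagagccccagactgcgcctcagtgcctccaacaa
Cxcl3: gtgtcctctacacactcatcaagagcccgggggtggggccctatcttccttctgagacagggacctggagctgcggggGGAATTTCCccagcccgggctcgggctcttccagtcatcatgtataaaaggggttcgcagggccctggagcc
The longest run of letters shared by the 3 windows, GGGAATTTCCC, has 11 bases, includes the marked match and begins 71, 97 and 73 bases before the start of Cxcl1, Cxcl2 and Cxcl3. Read on both strands, it was in 14 of 32851 RefSeq windows of 250 bases (0.0426%), and among members in these 3 only. The genes are close relatives, and both motifs were chosen after the sequences were seen. GGAANTTCC was in 7 of the 51 windows that belong to 42 of the 56 member symbols (13.7%) and in 0.813% of all windows. It was also found for Cxcl10, Ccr3, Ccl12 and Ccl1. Limma called no member with this match, Cxcl1, Cxcl2 and Cxcl3 included, and Ccr3 and Ccl1 were not tested. GAAANNGAA was in 13.7% of the member windows and 7.13% of all windows, with Cxcl9, Cxcl10 and Ccr2 among the members. Such matches describe letters and not occupied sites.

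Cxcr4 (ENSMUSG00000045382, minus strand of chromosome 1, 128588199 to 128592293, GRCm38) was the other member called higher. It is the signalling receptor of Cxcl12 on leukocytes, endothelial cells and progenitor cells. Its normalised read counts were 378.2, 384.2 and 460.8 in the cKO libraries and 190.2, 210.3 and 127.2 in the controls. Every cKO library was at least 1.798 times the highest control. The cKO mean was 2.32 times the control mean, with a fitted log2 difference of 1.23 ± 0.24 (SE, 3 libraries per group; 95% confidence interval 0.70 to 1.77). It passed narrowly with limma (adjusted p = 0.0491), and the authors' deposited table has an adjusted p of 0.00219. With edgeR's quasi-likelihood test the adjusted p was 0.0568 (0.0737 without its robust option), and with TMM scaling, scaling to total reads, a pseudocount of 0.5 or limma-voom it was 0.0507 to 0.0626. The call held without control replicate 1 (limma adjusted p = 0.0333) or 2 (0.0471) and was lost without each of the other 4 libraries (0.0545 to 0.276), while the log2 fold change stayed at 1.02 to 1.38 over the 6 omissions. The 150 bases before its RefSeq start (GRCm38.p6, chr1:128592300-128592449, minus strand) are shown for comparison with Ccl8, and they too held neither motif.
Cxcr4: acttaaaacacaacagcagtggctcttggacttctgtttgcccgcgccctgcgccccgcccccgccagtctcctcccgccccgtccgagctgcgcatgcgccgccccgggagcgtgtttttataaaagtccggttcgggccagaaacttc

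Cxcl12, the ligand of Cxcr4 and a product of stromal cells, did not pass the test. It had normalised read counts of 2992.0, 2238.9 and 3244.0 in the cKO libraries and 4278.4, 4033.5 and 2368.2 in the controls. The groups overlapped, with a log2 fold change of -0.30 ± 0.25, a 95% confidence interval of -0.87 to 0.26 and a limma adjusted p of 0.657. Ackr3, which removes Cxcl12, had 802.8, 937.1 and 935.9 in the cKO libraries and 665.7, 927.5 and 678.8 in the controls (log2 fold change 0.25 ± 0.18, limma adjusted p = 0.599). The difference between the changes of Cxcr4 and Cxcl12 was not tested.

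**Figure D4:**
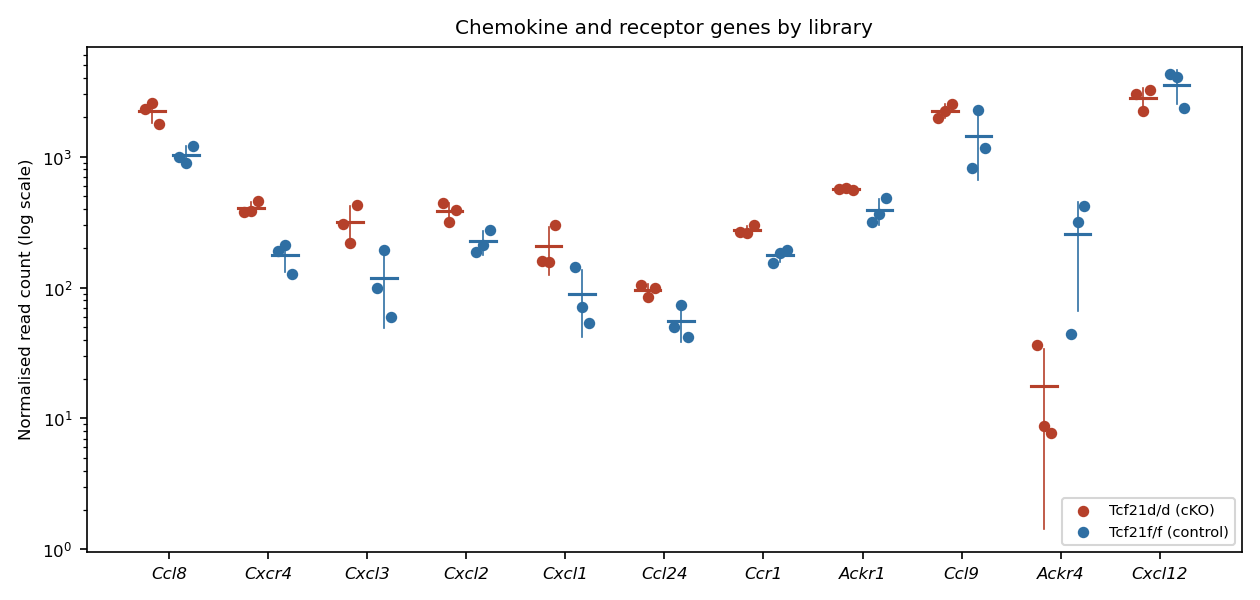
Normalised read counts (y axis, log scale) of 11 members (x axis) in the 3 Tcf21d/d and 3 Tcf21f/f libraries, with 1 point per library, the mean as a bar and its SD as a line. The groups are separate for Ccl8, Cxcr4, Cxcl3, Cxcl2, Cxcl1, Ccl24, Ccr1, Ackr1 and Ackr4 and overlap for Ccl9 and Cxcl12.

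The atypical receptors differed among themselves. Ackr4 (ENSMUSG00000079355, chromosome 9, 104084157 to 104126933, minus strand), which takes up Ccl21 and Ccl25, was the single member with all cKO libraries below all controls. Its normalised read counts were 36.2, 8.78 and 7.73 in the cKO libraries and 43.9, 315.5 and 417.2 in the controls. Control replicate 1 lay far closer to cKO replicate 1 than to the other controls. The log2 difference was -3.62 ± 0.93 (SE), the largest in size of any tested member, with a 95% confidence interval of -5.79 to -1.46. It did not pass by limma (adjusted p = 0.147) or edgeR (0.175), whereas DESeq2 called it lower (1.52e-05), the authors' deposited table lists an adjusted p of 0.0101, and limma called it without control replicate 1 (log2 fold change -4.63, adjusted p = 0.00659). Exons of Acad11 on the opposite strand cover 8.9% of the exons of Ackr4, and Acad11 itself was at 235.4 ± 16.01 in cKO and 261.4 ± 82.8 in control libraries. Ackr1 had 562.2, 576.3 and 558.0 in the cKO libraries and 315.8, 365.8 and 484.0 in the controls, without overlap and without a call (log2 fold change 0.56 ± 0.19, limma adjusted p = 0.241). Exons of Cadm3 on the same strand cover 25.7% of those of Ackr1, and Cadm3 was at 338.7 ± 89.0 in cKO and 361.8 ± 130.6 in control libraries. Ackr2, a scavenger of inflammatory CC ligands, was at 54.8 ± 13.2 in cKO and 53.6 ± 20.4 in control libraries. Ccrl2, which presents chemerin, was at 129.8 ± 42.5 in cKO and 109.6 ± 73.2 in control libraries.

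The ligands of Ackr4 had overlapping groups. Ccl25, known from the thymus and gut, had 73.4, 79.0 and 68.5 normalised reads in the cKO libraries and 62.2, 87.2 and 55.2 in the controls. The main Ccl21a row, on an unplaced scaffold, had 201.6, 78.0 and 287.3 in the cKO libraries and 153.6, 869.1 and 56.9 in the controls, so control replicate 2 alone set the control mean. The chromosome 4 rows of Ccl21a, Ccl27a and Ccl27b match other genes at 98.6 to 99.3% over their longest stretches, so reads cannot be divided among such copies with certainty. The scaffold rows, the main Ccl21a row included, were not compared with other genes, and their values are uncertain too. Ccl17 and Ccl22, ligands of Ccr4 made by dendritic cells, were highest in control replicate 2 and in cKO replicate 3, and Cxcl13, which organises B cell follicles, was at 16.2 ± 7.84 in cKO and 20.9 ± 9.41 in control libraries. Among the interferon-induced ligands of Cxcr3, Cxcl9 was at 43.6 ± 26.3 in cKO and 33.8 ± 25.6 in control libraries and Cxcl10 at 47.9 ± 2.61 in cKO and 46.7 ± 26.3 in control libraries. Their receptor Cxcr3, found on T cells and natural killer cells, was at 31.4 ± 23.1 in cKO and 23.8 ± 4.63 in control libraries. Ccl27a on chromosome 4, a skin ligand of Ccr10, was at 341.7 ± 6.82 in cKO and 332.8 ± 57.1 in control libraries. The low receptors Xcr1, Cxcr6, Ccr7 and Ccr10 and the mucosal ligand Ccl28 also had overlapping groups.

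Several abundant members had group means close to each other. Cxcl14 was at 866.6 ± 95.4 in cKO and 872.3 ± 375.3 in control libraries (log2 difference 0.10) with a 95% confidence interval of -0.66 to 0.86. Cx3cr1 was at 371.5 ± 154.4 in cKO and 372.3 ± 192.3 in control libraries, and its ligand Cx3cl1, a membrane-bound adhesive chemokine, at 271.5 ± 76.2 in cKO and 238.8 ± 18.7 in control libraries. Cxcl16, the ligand of Cxcr6, was at 768.9 ± 72.2 in cKO and 647.5 ± 103 in control libraries (log2 fold change 0.25 ± 0.17, limma adjusted p = 0.575), with exons of Zmynd15 on the opposite strand over 18.3% of its own. Across all members, CPM summed to 1201, 1107 and 1173 in the cKO libraries and 800.8, 1289 and 915.3 in the controls. By CPM the highest total was therefore in a control library. In normalised read counts, ligand values summed to 13620, 13130 and 15050 in the cKO libraries and 11140, 15280 and 9108 in the controls. Receptor values summed to 4880, 4161 and 3854 in the cKO libraries and 3105, 3539 and 3672 in the controls.

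Chemokine receptors are carried mostly by leukocytes, and the ligands are made by leukocytes and by stromal, epithelial and endothelial cells. In bulk tissue more cells of a type and more RNA per cell cannot be told apart. All 10 general leukocyte genes had a positive fitted difference, though Arhgdib had a lower mean in cKO than in control libraries. Of the 10, 1 was called, Coro1a, an actin regulator of leukocytes, which rose (log2 difference 0.86 ± 0.15, limma adjusted p = 0.0365). Coro1a averaged 2026.8 ± 205.0 in cKO and 1117.1 ± 82.7 in control libraries (SD, n = 3 each). Its call was not examined under other settings. The list took 0.0731, 0.074 and 0.0751% of reads in the cKO libraries and 0.0295, 0.0983 and 0.0546% in the controls. Of 14 macrophage genes 12 had a positive fitted difference, none passed, and the median log2 fold change was 0.60. Mertk and Timd4, both positive by the fit, had a lower mean in cKO than in control libraries. At an unadjusted p under 0.05 by limma, 6 of the 14 were higher, where 6.11% of all tested genes were higher. The 14 genes took 0.292, 0.253 and 0.301% of reads in the cKO libraries and 0.122, 0.271 and 0.135% in the controls. Lyz2, a lysozyme of macrophages and neutrophils, made up most of the sum in control replicate 2, with normalised read counts of 17376, 14554 and 26896 in the cKO libraries and 5882.9, 22506 and 5587 in the controls. Lyz2 was left out after its values were seen. The other 13 genes took 0.18, 0.159 and 0.134% in the cKO libraries and 0.0892, 0.116 and 0.0954% in the controls. That these groups did not overlap follows in part from this choice. Cd68, Adgre1 and Mertk were highest of all libraries in control replicate 2, where 9 of the 14 genes lay below every cKO library. For 6 of the 14 genes all cKO libraries stood above all controls, a separation that held for 9.04% of all tested genes. The 4 tested neutrophil genes of 7 listed also had positive differences, with sums of 0.0166, 0.00774 and 0.0165% in the cKO libraries against 0.00754, 0.00787 and 0.00687% in the controls, and none passed. T cell genes took 0.00164 to 0.00193% of reads in the cKO libraries and 0.00123 to 0.00173% in the controls, and B cell genes 0.000756 to 0.00112% in cKO and 0.000937 to 0.00113% in control libraries. Other immune lists did not all go up. All 4 tested mast cell genes had negative differences (median log2 fold change -0.543), as had the 1 tested natural killer cell gene (-0.719). Of 5 monocyte genes 4 had a positive difference, and 1 had all cKO libraries below all controls. Of 7 dendritic cell genes 5 had a positive and 2 a negative difference. Blood endothelial genes took 0.0703 to 0.0869% in cKO and 0.0578 to 0.0923% in control libraries, and lymphatic endothelial genes 0.0146 to 0.0176% in cKO and 0.0148 to 0.017% in control libraries. In the neutrophil list Elane was at 0 in all cKO libraries. No gene of the leukocyte, macrophage, T cell, B cell or endothelial lists was at 0 in all cKO libraries. The part of these cell types in the changes of Ccl8 and Cxcr4 was not tested.

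**Figure D5:**
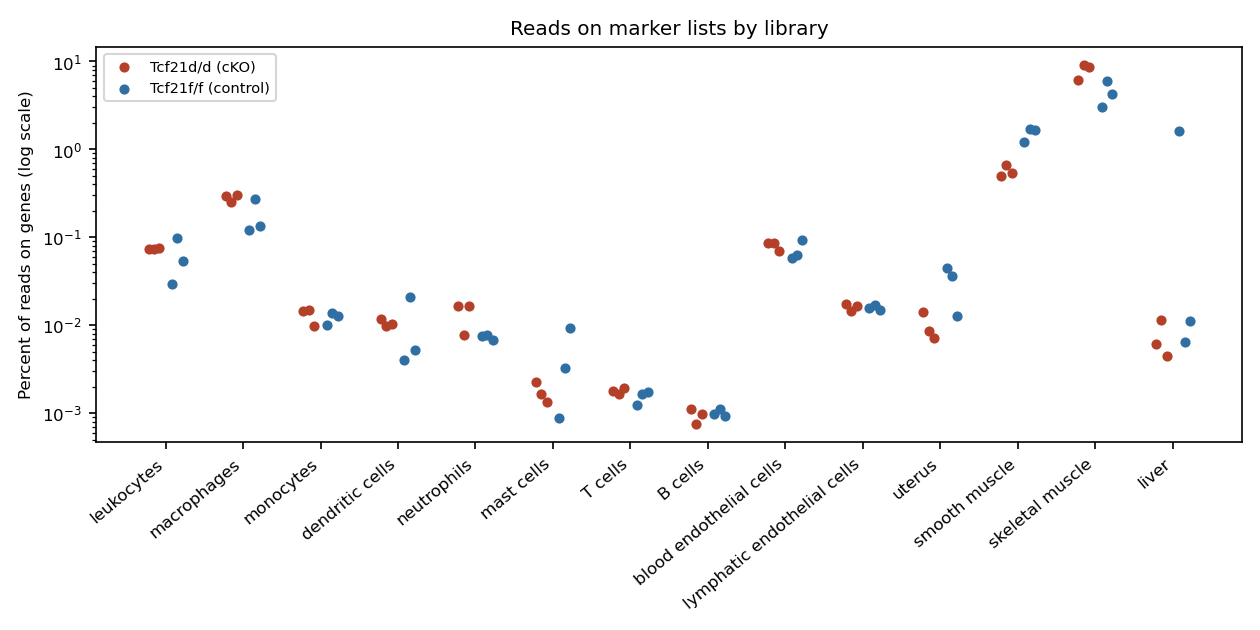
Percent of each library's reads on genes (y axis, log scale) that fell on marker lists of cell types and tissues (x axis), with 1 point per library. The 3 Tcf21d/d libraries lie close together for leukocyte and macrophage genes, the Tcf21f/f libraries are spread over a wider range, and 1 Tcf21f/f library stands apart for liver genes.

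Pf4, a CXC chemokine of platelets and some macrophages whose symbol falls outside the naming rule, also rose. It had normalised read counts of 1582.4, 1250.1 and 1592.2 in the cKO libraries and 521.8, 731.6 and 717.0 in the controls, a log2 difference of 1.17 ± 0.19 (SE) that passed (limma adjusted p = 0.024). The groups did not overlap. Pf4 was the only gene called among 9 chemokine relatives without a standard symbol. Like that of Coro1a, its call was not examined under other settings.

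Other genes of the pathway gave few differences past the threshold. Among 34 genes that carry the receptor signal (G protein subunits, receptor kinases, arrestins and the exchange factors and kinases of migration), none was called, 5 were higher and 4 lower at an unadjusted p under 0.05, and the median log2 fold change was 0.31. Of 22 tested cytokines and transcription factors known to induce chemokine genes, none was called, 7 were higher and 1 was lower at an unadjusted p under 0.05. Over all tested genes 6.11% were higher and 7.60% lower at that level by limma. Il6 was at 28.8, 64.4 and 47.5 in the cKO libraries and 4.88, 5.39 and 14.2 in the controls. Tnf was at 109.7, 80.9 and 76.2 in the cKO libraries and 43.9, 48.5 and 17.79 in the controls. Both cytokine genes had separate groups and did not pass (limma adjusted p = 0.128 and 0.229). In this list 7 genes had all cKO libraries above all controls, and 2, Nfkbia and Hif1a, had all cKO libraries below. These separations held for 9.04% and 10.5% of all tested genes. Of 14 tested adhesion molecules of leukocyte entry none was called, 12 had a positive difference and 5 of these had an unadjusted p under 0.05. Of 14 proteins that bind or cleave chemokines none was called and 1, Tnfaip6, was higher at an unadjusted p under 0.05. DESeq2 and the authors' deposited table each had 3 members higher (Ccl8, Cxcr4 and Cxcl3) and 1 lower (Ackr4), where DESeq2 called 1.72% of all tested genes higher and 3.54% lower. The shares of all genes in the authors' deposited table were 0.883% higher and 2.37% lower.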

How the data were processed

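Trizol was used to extract RNA from the tissue, per the labels' protocols. The submitters' processing notes name HISAT2, SAMtools, featureCounts and the build GRCm39, with no versions, strand setting or rule for multiple matches. Of 26006 identifiers found in GENCODE vM21 (GRCm38), 25257, with all 59 members, had identical coordinates, so coordinates are read as GRCm38.

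The authors deposited a signal per gene and library, namely its reads over a size factor. In every column 100% of values were whole multiples of 1 step (tolerance 0.01 reads), which gave whole reads, 14584450 to 16579573 per library. The deposited log2 fold changes and the p-values of the authors' comparison come from a tool that no source here names, and 318 genes without a p-value stayed out of its shares.

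The plan set limma for deposited values that are normalised and edgeR for deposited counts. Limma 3.58.1 (R 4.3.3) therefore tested log2(value + 1), with a trended and robust empirical Bayes fit of 3 cKO against 3 control libraries. Count models could also be run, on the recovered reads. The added 1 understates the change of genes with few reads. The filter on low reads was filterByExpr of edgeR 4.0.16 with the groups, and Benjamini-Hochberg adjustment ran over all 16314 tested genes. On the recovered reads edgeR's robust quasi-likelihood test called 151 genes in all and was an alternative, as was DESeq2 1.42.0. The robust option of edgeR was chosen after the files were seen. The scripts were tested on simulated reads, with 3 libraries per group and 50 changed genes at each size. Limma called 0% of the simulated 1.5-fold changes, 14% of the 2-fold and 68% of the 4-fold ones. A gene that did not pass may therefore still differ.

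1 member counted in the totals is not reported here. The members and gene lists were chosen with earlier results of these data known. Named are Ccl8, Cxcr4, members with an adjusted or unadjusted p under 0.05 or groups that do not overlap, their partners, the 5 highest ligands and receptors per length, and called genes of the immune and pathway lists. Called genes of the other lists were the 8 smooth muscle genes and Snap25. Snap25, of the neuron list, was at 0 in all cKO libraries and was called lower (limma adjusted p = 0.0349). Some low members were chosen after their values were seen. So were the genes outside the family that are named without a call. These were Il6, Tnf, Nfkbia, Hif1a, Tnfaip6, Arhgdib, Lyz2, Cd68, Adgre1, Mertk, Timd4, Des, Wnt7a, Hoxa10, Hoxa11, Hoxd10, Pgr, Esr1 and Emx2, and those with overlapping exons. Near-identical stretches are blastn matches of at least 95% identity over at least 100 bases. Promoter windows are from RefSeq (GRCm38.p6). A count of 0 allows up to 3 reads, and such limits cover counting error only. Errors are SD over 3 animals, or SE where given with a log2 fold change.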

Additional observations from a re-analysis of the deposited data

How the results depend on the processing

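Ccl8 and Cxcr4 kept their direction under all 18 alternatives that refit the data, and were called under 10 and 7 of them. The limma counts were 45 genes higher and 145 lower, with 2 members higher and 0 lower. Members called higher fell to 1 with TMM scaling, 1 with a pseudocount of 0.5 and 1 with edgeR, and to 0 with scaling to total reads, 0 with limma-voom and 0 with the replicate block, while DESeq2 called 1 member lower. The robust option of edgeR was chosen after the files were seen, and the run without it was added after seeing the data. Without the robust option edgeR called 13 genes higher and 109 lower, with 0 members. Over all genes, total reads gave 12 higher, no filter 82 higher, DESeq2 280 higher and 578 lower, limma-voom 19 higher and 82 lower, and a threshold of 0.1 gave 121 higher and 253 lower. The replicate block gave 34 genes higher and 149 lower, with adjusted p values of 0.0588 for Ccl8 and 0.0747 for Cxcr4. The deviations of same-numbered libraries from their group means correlated across genes at 0.00843, -0.176 and 0.0438, which gives no pairing of the animals by number. Leaving out 1 library gave 1 to 117 genes higher and 42 to 347 lower, and 0 to 3 members higher and 0 to 1 lower. All 45 tested members were refit. Leaving out 1 library changed the sign of 23 of them, none called. Their log2 fold changes ranged from -0.2363 to 0.3401 for Ackr2, -0.4886 to 0.2193 for Ccl12, -0.5557 to 2.2852 for Ccl17, -1.1395 to 0.8148 for the main Ccl21a row, -0.171 to 0.2359 for a scaffold row of Ccl21c, -0.1711 to 0.6309 for Ccl22, -0.0025 to 0.3229 for Ccl25 and -0.0423 to 0.186 for Ccl27a on chromosome 4. They ranged from -1.0101 to 1.7534 for Ccl28, -0.023 to 1.0229 for Ccl3, -0.4859 to 0.0117 for Ccl5, -0.0864 to 1.1054 for Ccl6, -0.4963 to 0.4733 for Ccr7, -0.0622 to 0.9206 for Ccrl2, -0.0167 to 0.3978 for Cx3cl1 and -0.4196 to 0.4388 for Cx3cr1, and from -0.1483 to 0.5907 for Cxcl10, -0.7204 to 0.0511 for Cxcl13, -0.3211 to 0.3664 for Cxcl14, -0.3861 to 1.3014 for Cxcl9, -0.4575 to 0.7426 for Cxcr3, -0.1209 to 1.1722 for Cxcr6 and -0.0305 to 0.7554 for Xcr1. Another alternative changed the sign of 7 members. With edgeR, robust or not, and with DESeq2 Ccl12 was at 0.0202 and 0.0273, Ccl17 at -0.4054 and -0.3895, Ccl28 at -0.5745 and -0.5976, Ccr7 at -0.1063 and -0.1, Cx3cr1 at -0.0066 and -0.0015 and Cxcl14 at -0.0119 and -0.008. Ccr7 was at -0.0089 with limma-voom and the scaffold row of Ccl21c at -0.0085 with total reads. The cause was not tested. No scaling moved the median of all genes by more than 0.1. With 3 animals a group and 14584450 to 16579573 reads, 14 members had too few reads to be tested, and for members such as Ccl6 and Ccl21a the controls varied by more than the groups differed.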
